A study of Bos taurus with 6 samples.

Results

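Cadherins, the catenins that bind their tails and the epithelial adhesion molecule EPCAM were examined in bovine embryonic stem cells grown on living or on fixed feeder layers. The 10 genes are the type I cadherins CDH1, CDH2, CDH3 and CDH4, the type II cadherins CDH6, CDH9 and CDH11, the catenins CTNNA1 and CTNND1, and EPCAM. They were matched by symbol in the deposited TPM table and by Entrez identifier in the count table, and all 10 were found among its 19163 genes. F7 is a stem cell line derived from in vitro fertilized Holstein Friesian embryos. MC-F7 cells (1M-F7 in the deposited labels) grew on fibroblasts of C57 mouse embryos (MEFs) whose division was stopped with mitomycin C, and MT-F7 cells grew on MEFs killed with methanol. The deposited description gives 15 passages for both groups. Both received the same medium with fibroblast growth factor and the Wnt pathway inhibitor IWR1. The medium was changed every day for MC-F7 and every other day for MT-F7, so feeder and feeding schedule cannot be told apart. Each group had 3 RNA-seq libraries of the 1 line, made from cells that stayed afloat after a short plating on gelatin, a step meant to leave feeder cells behind. The study reports that a smaller part of the MC-F7 reads than of the MT-F7 reads mapped to the bovine genome. It proposes that fixed feeders lowered contamination by feeder cells. The part of mouse reads in the counts was not tested.

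Classical cadherins are calcium-dependent transmembrane proteins that bind cadherins of the neighbouring cell. Their tails hold beta-catenin or plakoglobin, which recruit alpha-catenin and with it the actin cytoskeleton, while p120-catenin binds closer to the membrane and keeps cadherins on the cell surface. E-cadherin (CDH1) holds embryonic epithelia and stem cell colonies together, N-cadherin (CDH2) is typical of neural and mesenchymal cells, and EPCAM is an epithelial glycoprotein that also marks pluripotent cells. The loss of E-cadherin with a gain of N-cadherin is known from gastrulation and from the formation of the neural plate.

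The libraries held from 21958386 to 24933430 counts on genes. Genes of the mitochondrial genome took 16.3% to 28.3% of the counts in MC-F7 and 18.0% to 27.9% in MT-F7, and replicate 3 had the highest share in either group. The markers POU5F1, NANOG, LIN28A, SALL4 and DPPA4 of pluripotent cells were present in both groups, and together they reached 936 to 1562 CPM (counts scaled to a library of 1000000 with TMM factors) in MC-F7 and 577 to 626 CPM in MT-F7. Most of the sum was POU5F1. SOX2, also on the list of these markers, was not found among the counted genes. POU5F1, NANOG, LIN28A and DPPA4 were 2.29-fold, 4.07-fold, 1.8-fold and 9.32-fold lower in MT-F7 (adjusted p = 0.0012, 1.1e-05, 0.021 and 2.8e-04), where 11.3% of all tested genes were lower. SALL4 did not pass (adjusted p = 0.29). DPPA4 was down to 4, 5 and 4 counts in MT-F7. It entered the test through its MC-F7 counts alone, so it could only be called lower. CDH1, CDH3, CTNND1 and EPCAM were lower in the same libraries as these markers, and the part of the markers' cells in that was not tested. Genes of trophectoderm summed to 50.8 to 77.3 CPM and 6.75 to 8.45 CPM, most of it KRT7, and CDX2, which defines trophectoderm, had 0 counts in all 6 libraries. Genes of neural crest summed to 11.9 to 12.8 CPM and 8.76 to 10.8 CPM. The statistics section of the study speaks of technical replicates, and separate cultures behind the 3 libraries are not stated, so the p values may measure technical spread only. In bulk RNA, fewer cells of a type and less RNA per cell cannot be told apart.

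Of the 10 genes, 8 differed between the groups and 2 did not pass the test. CDH2, CDH6, CDH9 and CDH11 were higher in MT-F7, and CDH1, CDH3, CTNND1 and EPCAM were lower. CDH9 entered the test through its MT-F7 counts alone, so it could only be called higher. The 10 genes were chosen with earlier results of these data known. The test was edgeR's quasi-likelihood test with Benjamini-Hochberg adjustment over 13001 tested genes, and 23.2% of all tested genes passed it at an adjusted p under 0.05, 11.9% higher and 11.3% lower in MT-F7. The 3016 genes behind this share became 1914 of 13177 without replicate 2 of MC-F7 and 4814 of 13331 when a block for the replicate number was fitted. The groups did not overlap in the same 8 genes, and over all tested genes they did not overlap in 40% (5198 of 13001). The split of the calls over all genes moved with the scale. It was 1553 higher and 1463 lower in the counts, and 1643 higher and 843 lower with limma on log2(TPM + 1). Library size is still in those TPM values, and after rescaling them to 1000000 the split was 1535 higher and 1011 lower. On each of these scales the 8 genes had the directions given here, but CDH3 did not pass with limma.

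**Figure D1:**
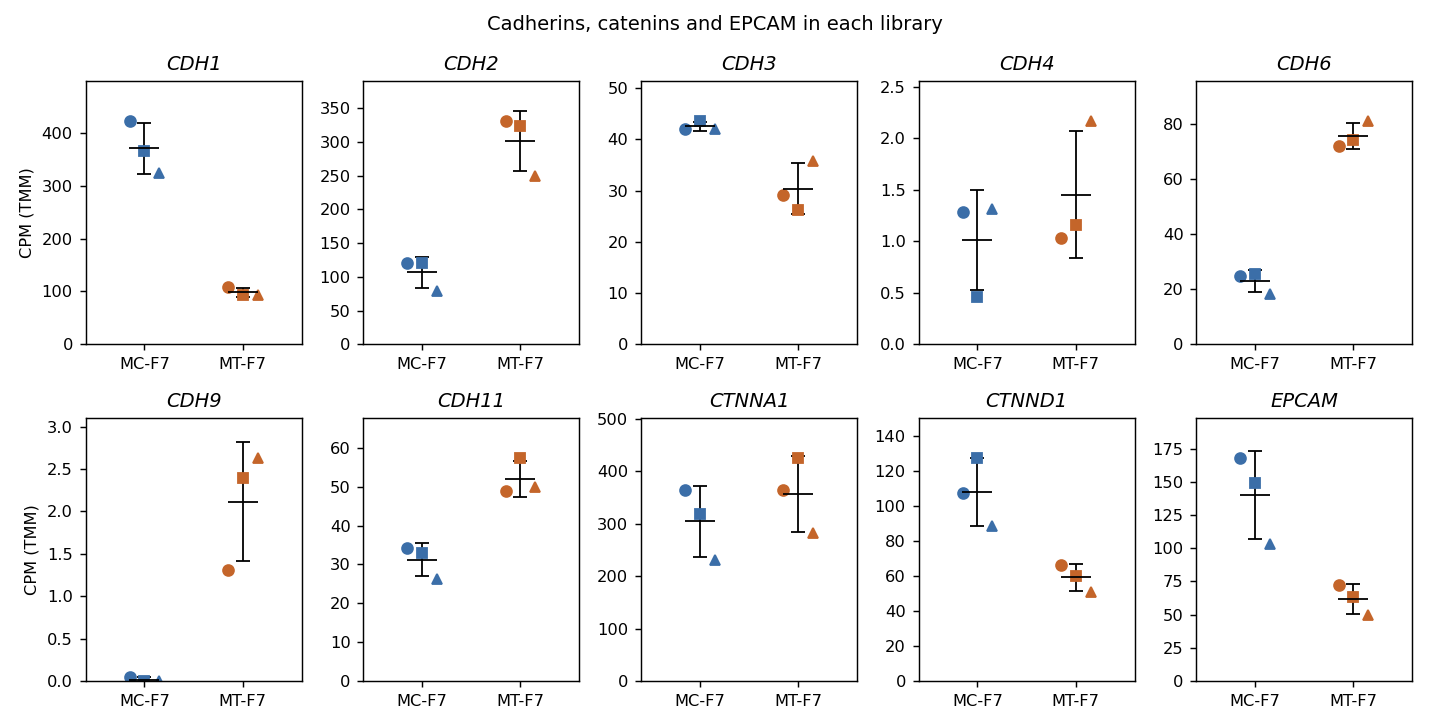
Expression of the 10 genes in CPM (linear axes from 0, 1 panel for each gene) in the 3 MC-F7 and 3 MT-F7 libraries, with circles, squares and triangles for replicates 1, 2 and 3, and with the mean and SD in black. CDH1, CDH3, CTNND1 and EPCAM lie lower in every MT-F7 library, CDH2, CDH6, CDH9 and CDH11 lie higher, and the groups overlap in CDH4 and CTNNA1.

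CDH1 (Entrez gene 282637), the E-cadherin of epithelia and stem cell colonies, had 423, 366 and 325 CPM in the MC-F7 libraries and 109, 92.6 and 93.1 CPM in the MT-F7 libraries. The 3 MT-F7 values lay close together and far below the lowest MC-F7 value. CDH1 was 3.78-fold lower in MT-F7 (log2 fold change -1.92, standard error 0.162, adjusted p = 5.2e-06). It passed in each of the 6 fits that left out 1 library, with log2 fold changes from -2.01 to -1.81.

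CDH2 (281062), the N-cadherin of neural and mesenchymal cells, had 120, 120 and 79.5 CPM in MC-F7 and 331, 324 and 249.9 CPM in MT-F7. Replicate 3 was the lowest library of both groups, yet every MT-F7 value was more than the highest MC-F7 value. CDH2 rose 2.83-fold (log2 fold change 1.5, standard error 0.193, adjusted p = 1.4e-04). Without replicate 3 of either group it also passed, and over the 6 fits without 1 library its log2 fold change was 1.32 to 1.61.

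CDH3 (281063), the P-cadherin first described in placenta, had 42.1, 43.6 and 42.0 CPM in MC-F7 and 29.1, 26.3 and 35.8 CPM in MT-F7. The MC-F7 libraries were nearly equal, and replicate 3 of MT-F7 came nearest to them without reaching them. The decrease was 1.4-fold (log2 fold change -0.49, standard error 0.16, adjusted p = 0.044) and sat at the edge of the threshold. CDH3 passed in 1 of the 6 fits without 1 library (adjusted p = 0.0093 to 0.18), namely without replicate 3 of MT-F7.

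CDH4 (525796), the R-cadherin of retina and brain, was close to the lowest level that could be tested. It had 1.28, 0.456 and 1.31 CPM in MC-F7 and 1.04, 1.16 and 2.17 CPM in MT-F7, and the groups overlapped. The log2 fold change was 0.52 with a 95% interval from -0.50 to 1.54 (adjusted p = 0.47), which includes 0.

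CDH6 (537946), a type II cadherin known from developing kidney and neural tissue, had 24.8, 25.4 and 18.3 CPM in MC-F7 and 71.7, 74.0 and 80.9 CPM in MT-F7. The MT-F7 values differed little among themselves, and replicate 3, the lowest in MC-F7, was the highest in MT-F7. CDH6 rose 3.31-fold (log2 fold change 1.72, standard error 0.168, adjusted p = 1.4e-05).

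CDH9 (541188), a type II cadherin of neurons, was almost not detected in MC-F7, where its counts were 1, 0 and 0. The MT-F7 libraries held 33, 62 and 62 counts, or 1.31, 2.39 and 2.63 CPM. The ratio of the summed counts, corrected for library size, was 143 with an exact 95% interval from 25.4 to 5702, which covers counting error only. CDH9 entered the test through its MT-F7 counts alone (adjusted p = 5.3e-05), and when at least 10 counts were required in every library it was not tested.

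CDH11 (785475), the cadherin of mesenchymal cells and osteoblasts, had 34.2, 33.0 and 26.3 CPM in MC-F7 and 48.9, 57.5 and 49.8 CPM in MT-F7. All MT-F7 libraries were above the MC-F7 libraries, but the distance was smaller than for CDH2 and CDH6. The increase was 1.67-fold (log2 fold change 0.74, standard error 0.16, adjusted p = 0.0051).

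CDH2 and CDH11 are also expressed by fibroblasts. The 12 fibroblast genes examined summed to 306 to 413 CPM in MC-F7 and to 622 to 743 CPM in MT-F7. COL3A1, POSTN, PDGFRB and FBLN1 rose, TWIST2 fell, and of the 6 other tested genes none passed. FAP, which marks activated fibroblasts, was seen with 0, 9 and 7 counts in MC-F7 and was at 0 in every MT-F7 library. Most of the sum came from FBLN1 (108 ± 21.0 and 327 ± 37.5 CPM) and COL1A1 (205 ± 31.4 and 268 ± 15.6 CPM, SD, n = 3). Of 9 counted genes of neural progenitors, 6 were tested, and FABP7, LHX2, SIX3 and RAX rose and the other 2 did not pass, where 23.2% of all tested genes passed. The sum of the 9 was 654 to 765 CPM in MC-F7 and 1352 to 1470 CPM in MT-F7. HES5, NEUROG2 and DCX were too low to be tested, and NEUROG2 was seen with 0, 11 and 5 counts in MC-F7 and was at 0 in every MT-F7 library. The part of such cells in the cadherin levels was not tested.

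The ratio of CDH1 to CDH2 was formed in each library from the deposited TPM values, which are divided by gene length. In MC-F7 it was 4.03, 3.5 and 4.69, and in MT-F7 it was 0.377, 0.328 and 0.427. Every MC-F7 library therefore held several times more CDH1 than CDH2 per length, and every MT-F7 library held more CDH2 than CDH1. The mean log2 ratio was 2.02 ± 0.212 (SD, n = 3) in the MC-F7 libraries and -1.41 ± 0.191 in the MT-F7 libraries, a difference of -3.43, or a 10.8-fold lower ratio in MT-F7. An exact two-sided permutation test gave p = 0.1, which is the smallest value that 3 libraries against 3 can give. Library size cancels out of this ratio. In both groups the ratio was lowest in replicate 2 and highest in replicate 3. In pairs of the same replicate number the difference was -3.42, -3.41 and -3.46, while the permutation test treats the libraries as unpaired.

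**Figure D2:**
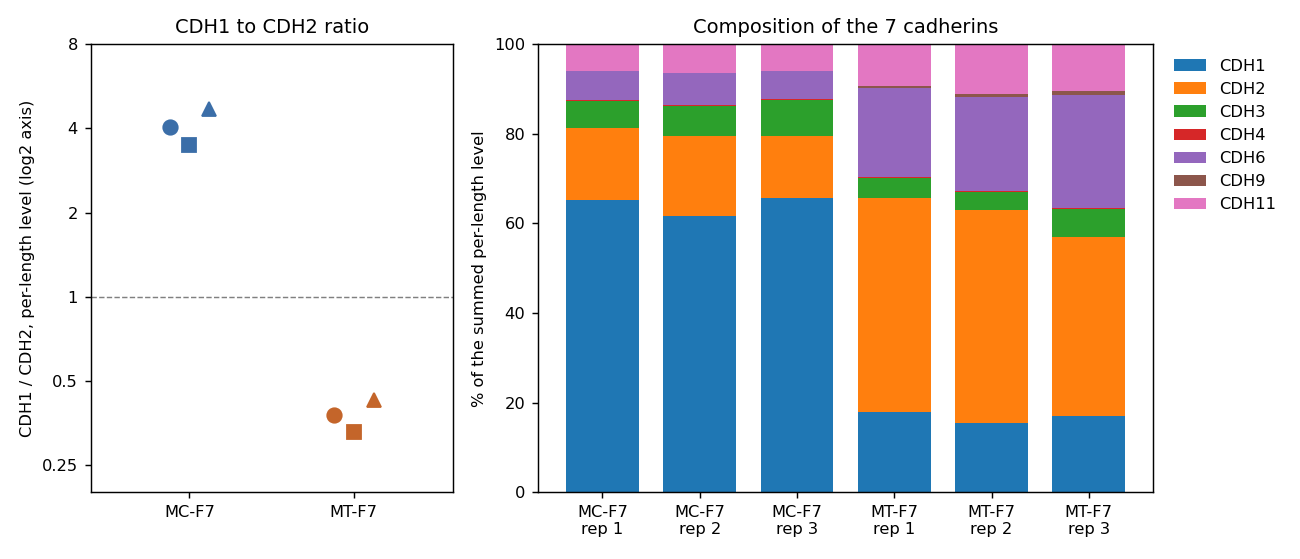
Left, ratio of CDH1 to CDH2 per gene length in each library on a log2 axis, where the dashed line marks equal levels and circles, squares and triangles are replicates 1, 2 and 3. Right, share in percent of each of the 7 cadherins in their summed per-length level, with 1 bar for each library. The MC-F7 ratios lie between 3.5 and 4.69 and the MT-F7 ratios between 0.328 and 0.427, and CDH1 takes 61.7% to 65.5% of the bars in MC-F7 and 15.5% to 18.0% in MT-F7.

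To compare the genes with each other, the deposited TPM values were rescaled to 1000000 in each library, called the per-length level here. In MC-F7 the order of the mean levels was EPCAM (117 ± 29.9), CDH1 (109 ± 15.7), CTNNA1 (99.9 ± 24.0), CDH2 (27.3 ± 6.74), CTNND1 (22.9 ± 4.99), CDH3 (11.7 ± 0.695), CDH6 (11.3 ± 2.3), CDH11 (10.5 ± 1.71), CDH4 (0.212 ± 0.0968) and CDH9 (0.00822 ± 0.0142). Among them the ranges of EPCAM, CDH1 and CTNNA1 overlapped from each to the next, as did those of CDH2 and CTNND1, and those of CDH3, CDH6 and CDH11. In MT-F7 the order was CTNNA1 (124 ± 30.4), CDH2 (81.7 ± 15.3), EPCAM (54.5 ± 11.8), CDH6 (39.4 ± 1.34), CDH1 (30.4 ± 3.34), CDH11 (18.6 ± 2.37), CTNND1 (13.3 ± 2.21), CDH3 (8.78 ± 0.999), CDH9 (1.25 ± 0.401) and CDH4 (0.321 ± 0.121). Here the ranges of CDH2 and EPCAM overlapped, and no other neighbours did. CDH1 was the most abundant of the 7 cadherins in MC-F7 and stood behind CDH2 and CDH6 in MT-F7.

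The summed per-length level of the 7 cadherins was 189, 180.5 and 139.9 in the MC-F7 libraries and 189, 192 and 160.2 in the MT-F7 libraries. These sums overlapped, with means of 169.6 ± 26.0 and 180.3 ± 17.5 (SD, n = 3, exact permutation p = 0.5). Within the sum, the share of CDH1 went from 64.1% ± 2.09 to 16.9% ± 1.23, that of CDH2 from 15.9% ± 1.85 to 45.0% ± 4.36, that of CDH6 from 6.64% ± 0.535 to 22.0% ± 2.68 and that of CDH11 from 6.2% ± 0.196 to 10.3% ± 0.919. For these 4 genes and for CDH9 the groups did not overlap (exact permutation p = 0.1 each, 0.14 after adjustment over 7 shares). CDH3 had a share of 6.98% ± 0.938 and 4.94% ± 1.08, with p = 0.2 in the same exact test. The sum leaves out CDH24, a type II cadherin with a per-length level of 19.6 ± 4.72 in the MC-F7 libraries and 32.1 ± 6.64 in the MT-F7 libraries, which was added after its values were seen (log2 fold change 0.64, standard error 0.217, adjusted p = 0.051). With all 19 type I and type II cadherins in the sum, the share of CDH1 differed by -42.6 percentage points in place of -47.3.

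CTNNA1 (526848), the alpha-catenin that connects cadherins to actin, had 364, 319 and 230.2 CPM in MC-F7 and 365, 426 and 282 CPM in MT-F7. The groups overlapped widely, and replicate 3, with the highest mitochondrial share, was the lowest in both. The log2 fold change was 0.23 with a 95% interval from -0.20 to 0.67 (adjusted p = 0.45). Set against the 7 cadherins in the same library, CTNNA1 had a ratio of 0.583 ± 0.0564 in MC-F7 and 0.684 ± 0.111 in the MT-F7 libraries (SD, n = 3, exact permutation p = 0.3). Set against CDH1 alone it went from 0.911 ± 0.102 to 4.09 ± 0.928.

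CTNND1 (515187), the p120-catenin that keeps cadherins at the membrane, had 107, 127 and 88.8 CPM in MC-F7 and 66.5, 60.2 and 50.7 CPM in MT-F7. Every MT-F7 value lay below every MC-F7 value. CTNND1 fell 1.82-fold (log2 fold change -0.87, standard error 0.173, adjusted p = 0.0031). Its decrease was smaller than that of CDH1, so its per-length ratio to CDH1 rose from 0.211 ± 0.0363 to 0.435 ± 0.0386, while its ratio to the 7 cadherins went from 0.135 ± 0.0187 to 0.0732 ± 0.00607. Neither ratio overlapped between the groups (exact permutation p = 0.1 each, 0.114 after adjustment over 8 ratios).

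EPCAM (514039) had 168, 149 and 103 CPM in MC-F7 and 72.3, 63.2 and 49.6 CPM in MT-F7. Replicate 3 was the lowest library in both groups, and the groups did not overlap. The decrease was 2.27-fold (log2 fold change -1.18, standard error 0.201, adjusted p = 0.0011). In every library of MT-F7 the per-length ratio of EPCAM to CDH1 was higher (1.89, 1.94 and 1.51) than in any library of MC-F7 (1.13, 1.16 and 0.903).

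**Figure D3:**
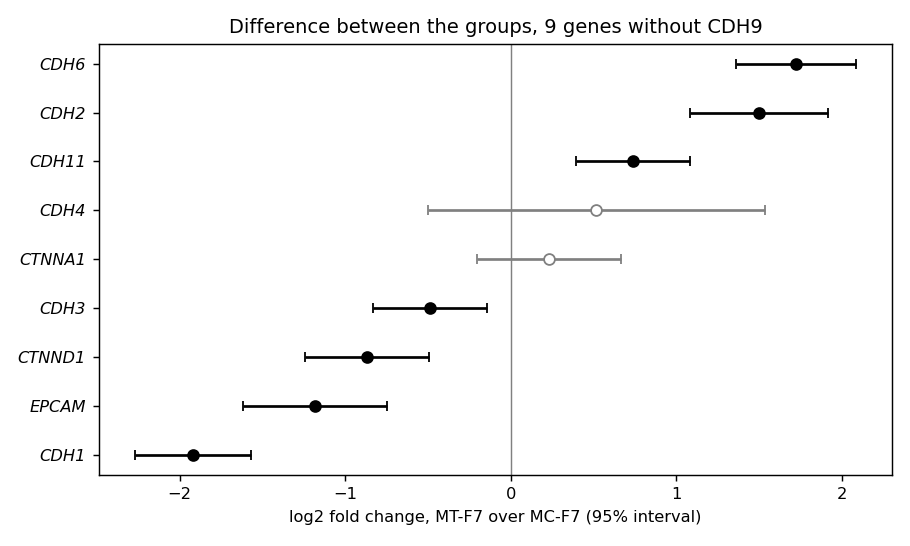
Log2 fold change of MT-F7 over MC-F7 for 9 of the genes, with 95% intervals from edgeR's quasi-likelihood fit. Filled points have an adjusted p under 0.05 and open points do not. CDH9 is left out because its MC-F7 libraries held 1, 0 and 0 counts. The intervals of CDH4 and CTNNA1 include 0, and CDH1 at -1.92 and CDH6 at 1.72 are the ends of the range.

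Of 17 other catenins and cytoplasmic partners of cadherins 15 were tested, and 3 rose, none fell and 12 did not pass, a share no higher than the 23.2% of all tested genes, with a median log2 fold change of 0.29 beside -0.0026 over all tested genes. CTNNA2, the neural paralog of CTNNA1, rose from 3.89 ± 0.954 to 8.49 ± 2.14 CPM (log2 fold change 1.13, standard error 0.264, adjusted p = 0.0079). CTNNBIP1, which keeps beta-catenin away from TCF factors, rose from 28.1 ± 7.11 to 59.9 ± 2.98 CPM, and AFDN (afadin), which ties nectins to actin, from 135 ± 31.8 to 206 ± 33.9 CPM (adjusted p = 0.0011 and 0.036). Beta-catenin (CTNNB1) had 174 ± 6.13 CPM in MC-F7 and 228 ± 36.7 CPM in MT-F7, and it did not pass (log2 fold change 0.39, standard error 0.158, adjusted p = 0.095). Plakoglobin (JUP) had a log2 fold change of -0.073 and CTNND2, the neural paralog of CTNND1, of 0.26 (adjusted p = 0.78 and 0.26).

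Among 16 other cadherins, 10 had enough counts, of which 4 rose and 1 fell. Of all tested genes 11.9% rose and 11.3% fell. CDH10 rose from 1.45 ± 0.453 to 10.2 ± 1.73 CPM (log2 fold change 2.81, adjusted p = 1.6e-05), CDH13, which is anchored in the membrane without a tail, from 1.03 ± 0.0852 to 2.81 ± 0.0844 CPM, and CDH20 from 1.75 ± 0.381 to 4.56 ± 0.628 CPM. The other gene that rose was CDH18, named after its values were seen, whose counts were 1, 4 and 0 in the MC-F7 libraries and 12, 19 and 17 in the MT-F7 libraries. CDH18 entered the test through its MT-F7 counts alone. CDH23, a cadherin of hair cell tip links, fell from 5.42 ± 1.15 to 2.89 ± 0.623 CPM (adjusted p = 0.025). CDH16, CDH19 and CDH26 had 0 counts in all libraries. Of 9 tested protocadherins outside the gene clusters, 6 rose and none fell, with a median log2 fold change of 1.94. Of the 6, PCDH17 entered the test through its MT-F7 counts alone, and 11.9% of all tested genes rose. PCDH8 rose from 3.86 ± 0.233 to 22.5 ± 0.483 CPM (adjusted p = 1.1e-06), PCDH15 from 0.721 ± 0.111 to 4.82 ± 0.908 CPM, PCDH10 from 1.73 ± 0.698 to 7.58 ± 1.06 CPM and PCDH7 from 1.52 ± 0.129 to 5.84 ± 0.669 CPM.

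Nectins are immunoglobulin-type adhesion proteins of the same junctions, and 3 of 5 genes of this list rose, where 11.9% of all tested genes did. NECTIN1 (12.9 ± 2.05 to 23.8 ± 0.95 CPM), NECTIN2 (74.4 ± 12.5 to 128 ± 13.1 CPM) and NECTIN3 (5.34 ± 1.52 to 10.9 ± 0.838 CPM) were higher in MT-F7, with adjusted p values of 0.0026, 0.0044 and 0.0058, and NECTIN4 and PVR did not pass. Desmosomes showed no call. Of 8 genes for desmosomal cadherins and desmoplakin, DSC2, DSG2 and DSP were tested and the other 5 were too low. Their log2 fold changes were -0.10, -0.09 and 0.19 (adjusted p = 0.72, 0.79 and 0.37).

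Of 7 genes listed with EPCAM 5 were tested and 4 of them fell, where 11.3% of all tested genes fell. The median log2 fold change was -1.36, beside -0.0026 over all tested genes. CLDN7, a claudin that forms a complex with EPCAM, fell from 77.7 ± 2.96 to 14.5 ± 0.931 CPM (log2 fold change -2.42, standard error 0.151, adjusted p = 7.6e-07). The membrane protease ST14 (matriptase), which cleaves EPCAM, fell from 58.4 ± 1.27 to 22.8 ± 4.95 CPM, and its inhibitor SPINT1 from 13.3 ± 1.51 to 2.97 ± 0.402 CPM. FHL2, a cofactor that binds the freed tail of EPCAM, had a log2 fold change of -0.69 (adjusted p = 0.0093). The inhibitor SPINT2 did not pass, with 132 ± 21.9 and 134 ± 7.77 CPM.

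Among 11 genes for the cleavage and turnover of cadherins and EPCAM, 2 rose, 1 fell and 8 did not pass, which is near the 23.2% of all tested genes. NCSTN, a subunit of gamma-secretase, and the metalloprotease ADAM15 rose (log2 fold changes 0.60 and 0.63, adjusted p = 0.015 and 0.037). CBLL1 (Hakai), a ubiquitin ligase of E-cadherin, fell from 14.8 ± 2.7 to 7.99 ± 0.445 CPM (adjusted p = 0.0049). The cadherin sheddase ADAM10 did not pass (log2 fold change 0.47, adjusted p = 0.057).

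Repressors of CDH1 did not share a direction. ZEB1 rose from 16.1 ± 1.56 to 26.7 ± 3.3 CPM (log2 fold change 0.73, adjusted p = 0.0068), whereas SNAI1 fell from 9.18 ± 0.629 to 3.49 ± 0.625 CPM (-1.40, adjusted p = 5.5e-04) and TWIST2 from 1.81 ± 0.312 to 0.406 ± 0.291 CPM (-2.15, adjusted p = 0.011). SNAI2, ZEB2 and TWIST1 did not pass. Of 8 tested activators of epithelial genes, 3 fell and 1 rose. Beside both kinds of regulator, 11.3% of all tested genes fell and 11.9% rose. The splicing regulator ESRP1 fell from 20.0 ± 3.47 to 4.39 ± 0.477 CPM (log2 fold change -2.19, adjusted p = 7.9e-06), OVOL2 from 2.42 ± 0.419 to 0.652 ± 0.206 CPM and OVOL1 from 3.49 ± 0.574 to 1.87 ± 0.236 CPM. GRHL3, a factor of surface ectoderm, went the other way, and its counts were 1, 3 and 9 in the MC-F7 libraries and 121, 127 and 77 in the MT-F7 libraries. It entered the test through its MT-F7 counts alone. Over the 9 lists together, 31 of 72 tested genes passed, 20 higher and 11 lower, where 23.2% of all tested genes did. The lists were chosen with earlier results of these data known, so this comparison is a description only. Of the 72, 3 (CDH18, GRHL3 and PCDH17) had fewer than 10 counts in every MC-F7 library. They could only enter the test by being higher in MT-F7.

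**Figure D4:**
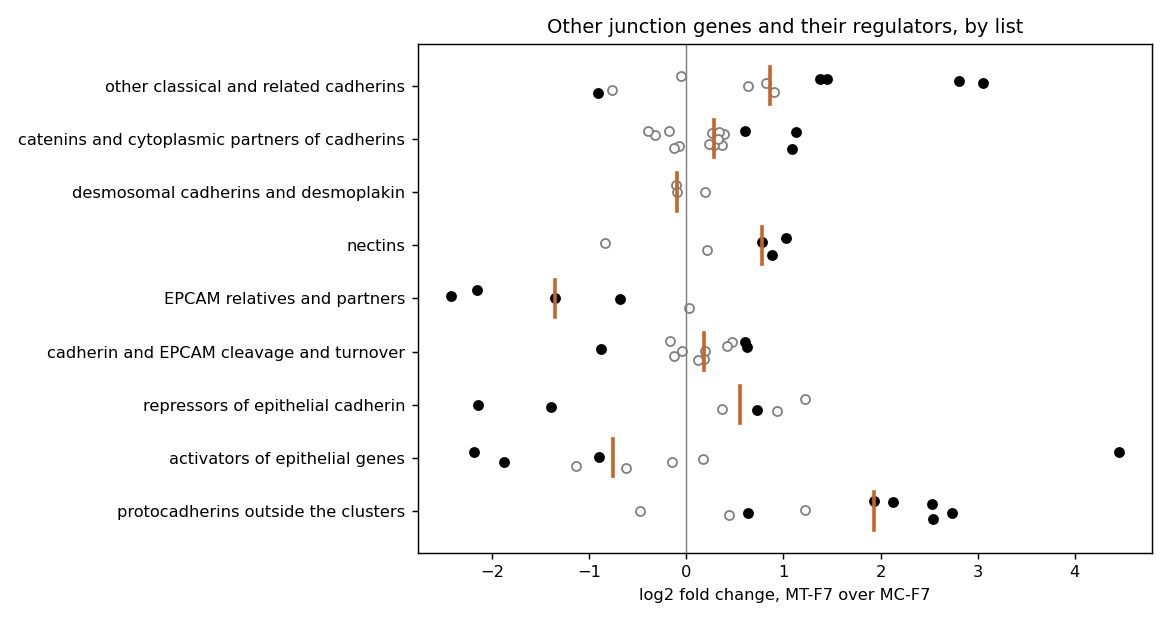
Log2 fold change of MT-F7 over MC-F7 for the 72 tested genes of 9 lists of other junction genes and their regulators. Filled points have an adjusted p under 0.05, open points do not, the orange bar is the median of a list, and the vertical place within a list has no meaning. Partners of EPCAM lie mostly below 0 with a median of -1.36, protocadherins mostly above 0 with a median of 1.94, and desmosomal genes near 0.

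Genes whose profile over the 6 libraries was most like that of CDH1 or CDH2 were sought by Pearson's r on log2 CPM over 7807 genes whose mean reached 10 CPM. For CDH1 they were HHIP, KRT7, NINJ1, CLIC6 and RTN4RL2, with r from 0.997 to 1.000. All 5 were lower in MT-F7, KRT7 (keratin 7 of simple epithelia) from 63.7 to 6.28 CPM and HHIP, which binds hedgehog ligands, from 38.2 to 8.72 CPM. For CDH2 they were AIF1L, FBLN1, SPP1, FSTL1 and MAGED2, with r from 0.996 to 0.997, all higher in MT-F7. All points share the same 6 libraries in 2 groups that stand apart, and r is given as a description.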

How the data were processed

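RNA-seq of 3 MC-F7 and 3 MT-F7 libraries was used. Per the labels and the methods of the study, reads were mapped with HISAT2 2.0.5 to a genome taken from Ensembl and counted with featureCounts 1.5.0-p3. The genome build and strand setting are not given in the sources used here, so overlapping genes cannot be told apart. The authors deposited raw counts per gene for 19163 genes, whose M1 columns were taken as the 1M libraries, and a table of TPM values. The TPM values deposited by the authors add up to 154763 to 164394 per library, and dividing them by the counts gave 1 constant per gene over the 6 libraries (within 0.1%) for 9695 of 9708 genes compared, so library size is still in them. Symbols came from a RefSeq table, which matched 19074 identifiers.

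Genes were kept with filterByExpr (minimum count 10, total 15) and tested with edgeR 4.0.16 (TMM, quasi-likelihood, two-sided, no block) under R 4.3.3, with Benjamini-Hochberg adjustment over 13001 genes. Standard errors are the log2 fold change divided by the root of the F statistic. The alternatives used DESeq2 1.42.0, other factors and filters, removal of mitochondrial genes, each library left out, and the replicate number as a block. Limma 3.58.1 was run on log2(TPM + 1) and log2(TPM + 0.1), with a mean TPM of at least 0.1 or no filter. It was also run on TPM values rescaled to 1000000 with 1 added, which was not planned at first. Single values were compared with exact permutation tests (scipy 1.17.1). The main edgeR fit, the fit with the block, DESeq2 and limma with 0.1 added were first tested on simulated counts. These counts held no replicate effect, and the other alternatives were not simulated.

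Genes named are the 10 members, CTNNB1, JUP, CTNNA2, CTNND2, at most 4 called genes per list with the largest change and a mean of at least 1 CPM, and 5 genes most like CDH1 and CDH2. Others, and all ratios but CDH1 to CDH2, were picked after their values were seen. The members and lists were chosen with earlier results of these data known. No sequence of the genes was at hand, and 1 item of the lists is not reported here. Lists of markers for neural crest (NGFR higher, FOXD3 lower) and trophectoderm (KRT7 lower) were also examined.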

Additional observations from a re-analysis of the deposited data

How the results depend on the processing

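The 8 calls among the 10 genes were 6 to 8 under every alternative without a fold change limit, and with an absolute log2 fold change over 1 they were 5 (3 higher, 2 lower). No gene of the 10 changed direction under any alternative. CDH3 passed in 7 of 12 alternatives that kept all libraries or left out replicate 3 of both groups, and in 1 of the 6 fits without 1 library. CTNND1 was lost only in limma without a filter (adjusted p = 0.081), and CDH9 was not tested when 10 counts were required in every library. Over the 6 fits without 1 library, 7 to 8 of the 10 genes, 25 to 31 partner genes and 1914 to 3093 of all genes passed, the lowest without replicate 2 of MC-F7. With the fold change limit the partner genes came to 20 (13 higher, 7 lower) and all genes to 1489.

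With the replicate number as a block, 8 of the 10 genes, 41 partner genes and 4814 of all genes passed. Over all tested genes, the deviations of same-numbered libraries from their group means had correlations of 0.134, 0.0445 and 0.417. Libraries of different numbers were not compared in this way. The methods name no pairing, so none was fitted in the main test, and whether the number is a pairing cannot be told here. With the replicate block the difference in the log2 ratio of CDH1 to CDH2 was -3.43 with a standard error of 0.0133. In this ratio same-numbered libraries moved together. The difference was -3.53 to -3.32 without 1 library, and -3.04 with 1 added to both TPM values, which pulls the ratio towards 1. The difference in the share of CDH1 was -48.5 to -46.6 percentage points without 1 library and -42.6 with all 19 cadherins. The median of all genes moved to 0.106 (log2) in limma on log2(TPM + 0.1), and relative to it the 8 called genes kept their direction. Without replicate 3 of both groups, chosen after the data were seen, 8 of the 10 genes passed. CDH4 and CDH9 had few counts, and there depth limits what can be seen.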

Other observations

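In the RefSeq gene order of the assembly ARS-UCD2.0, used for names only, CDH6 and CDH9 are neighbouring protein-coding genes, and CDH10 is the second gene after CDH9. All 3 were higher in MT-F7 (log2 fold change 1.72 for CDH6 and 2.81 for CDH10, and CDH9 had 1 count in all of MC-F7). Of all tested genes 11.9% were higher and 11.3% lower. DROSHA, on the other side of CDH6, had a log2 fold change of -0.011 (adjusted p = 0.97). CDH1 and CDH3 are neighbours as well, and both were lower, CDH3 at the edge of the threshold (adjusted p = 0.044). TANGO6 next to CDH1 had a log2 fold change of -0.034 (adjusted p = 0.93). CDH11 lies between CDH8 and CDH5, neither of which had enough counts to be tested. TK2, the gene after CDH5, had a log2 fold change of 0.60 (adjusted p = 0.066). CHST9, next to CDH2, had a log2 fold change of 1.49 (adjusted p = 0.24), and neither gene passed.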
